A study of Mus musculus with 6 samples.

Results

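The late cornified envelope genes Lce1b, Lce1c, Lce1d, Lce1e, Lce1g, Lce1h, Lce1i, Lce1k, Lce1l and Lce1m were followed across embryonic mouse epidermis lacking Sox4, Sox11 or both. These 10 genes were chosen by name, with earlier results of these data known, out of 21370 named genes on the array. They were read by 12 of its 55681 non-control probes, with 2 probes each for Lce1c and Lce1i and 1 probe for each of the other genes. Where a gene had 2 probes, the one with the higher mean signal represented it. The gene names came from the RefSeq accession attached to each probe.

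The epidermis was taken at embryonic day 16 and hybridised to 6 arrays in 2 colours. The labels give the strain of every sample as 129SvEx:C57BL/6, and per the methods the floxed mice of that background had been crossed to a Cre line on FVB/N. Each array set 1 knockout sample against wild-type littermate epidermis. A conditional knockout (cKO) of Sox4, one of Sox11 and the loss of both genes (dcKO) were profiled on 2 arrays per genotype. The floxed alleles were deleted by a Cre recombinase under the keratin 14 promoter, which is active in keratinocytes, so cells of other types in the sample keep both genes. The founder floxed mice also carried a deletion of Sox12, and whether the profiled embryos did is not given in the sources used here. Knockout RNA carried Cy5 on replicate 1 and Cy3 on replicate 2, with the wild type in the remaining dye. The labels call the replicates biological. They do not say whether wild-type RNA was shared between arrays.

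SOX4 and SOX11 are closely related transcription factors of the SOXC group, which are used widely in embryonic tissues and decline as they mature. The cornified envelope is the cross-linked protein shell that replaces the plasma membrane of a keratinocyte as it becomes a dead cell of the outer skin barrier. Late cornified envelope proteins are small, rich in glycine, serine and cysteine, and are added to that shell at a late step by transglutaminases. Their genes sit side by side in the epidermal differentiation complex, a gene-dense region that also holds loricrin, involucrin, the small proline-rich (Sprr) genes and filaggrin.

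The stretch just before the start of each gene is shown because the members share it and because it was not used to choose them. Each sequence below is the last 80 bases before the RefSeq gene start (mouse assembly GRCm38.p6, chromosome 3), read 5′ to 3′ on the strand of the gene, with the letters ATAAAA in capitals. Lce1c lies on the plus strand and the other 9 genes on the minus strand.
Lce1b: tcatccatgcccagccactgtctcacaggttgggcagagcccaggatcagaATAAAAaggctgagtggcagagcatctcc
Lce1c: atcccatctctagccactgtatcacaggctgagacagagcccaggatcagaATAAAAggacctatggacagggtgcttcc
Lce1d: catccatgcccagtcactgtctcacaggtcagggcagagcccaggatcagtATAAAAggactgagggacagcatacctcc
Lce1e: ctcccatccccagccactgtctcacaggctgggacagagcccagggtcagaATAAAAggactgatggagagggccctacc
Lce1g: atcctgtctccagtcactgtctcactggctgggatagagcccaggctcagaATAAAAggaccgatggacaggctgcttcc
Lce1h: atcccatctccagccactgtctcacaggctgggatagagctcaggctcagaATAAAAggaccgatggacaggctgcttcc
Lce1i: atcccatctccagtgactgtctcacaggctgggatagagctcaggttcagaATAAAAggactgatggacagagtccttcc
Lce1k: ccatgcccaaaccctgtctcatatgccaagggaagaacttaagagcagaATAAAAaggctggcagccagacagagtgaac
Lce1l: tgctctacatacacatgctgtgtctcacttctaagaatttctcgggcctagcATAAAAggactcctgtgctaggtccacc
Lce1m: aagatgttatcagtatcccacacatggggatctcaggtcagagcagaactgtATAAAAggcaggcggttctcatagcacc
These windows cover chr3:92656927-92657006 for Lce1b, chr3:92679167-92679246 for Lce1c, chr3:92687211-92687290 for Lce1d, chr3:92709075-92709154 for Lce1e, chr3:92752339-92752418 for Lce1g, chr3:92765066-92765145 for Lce1h, chr3:92778900-92778979 for Lce1i, chr3:92807892-92807971 for Lce1k, chr3:92851287-92851366 for Lce1l and chr3:93019062-93019141 for Lce1m.

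All 10 windows held ATAAAA on the sense strand, beginning between 31 and 28 bases before the gene start. This run of letters was chosen after the windows had been seen. At any position within 250 bases before the start, it occurred on the sense strand in 10.2% of 32851 mouse promoter windows and on either strand in 17.0%. The canonical TATAAA was present in 2 members, Lce1d and Lce1m, where it overlaps ATAAAA, against 12.4% of all windows. Lce1b, Lce1c, Lce1d, Lce1e, Lce1g, Lce1h and Lce1i were alike, with pairwise identities over the 80 bases of 73.2% to 93.8%, the highest being Lce1g with Lce1h. Pairs that included Lce1k, Lce1l or Lce1m reached 46.4% to 64.3%. The SOX-type letters AACAAT and AACAAAG were found on neither strand of any member's 250 bases, against 9.42% and 5.03% of all windows. The AP-1 letters TGANTCA were also found in no member, against 6.75%. CACCC, searched on both strands, was found in 4 members (Lce1b, Lce1c, Lce1h and Lce1k) and in 52.0% of all windows. These matches describe letters in a short window and not binding.

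The deleted genes were examined first. The dimmer of 2 Sox4 probes was well above background in all 6 wild-type samples and in no sample of Sox4 cKO or dcKO. Its log2 ratios, limited by background on the knockout side, came to −1.66 and −2.26 where Sox4 alone was deleted and to −1.55 and −1.61 in dcKO. The Sox11 cKO arrays gave 0.07 and 0.09. The brighter Sox4 probe gave −0.14 and −0.71 in Sox4 cKO and −0.96 and −0.69 in dcKO. Both Sox11 probes lay near background, with 3 wild-type samples of 6 well above it for one probe and none for the other, so the Sox11 genotype could not be checked here. Whether the probes lie inside the deleted sequence was not analysed here. Keratin 14 (Krt14), which marks basal keratinocytes, was well above background in every sample, with wild-type levels of 14.00 to 14.32 on the log2 scale.

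The Lce1 genes rose together in dcKO. All 10 were called higher than the wild type, which means an adjusted p under 0.05 in limma and a log2 fold change over 1.5, whereas 0.172% of all probes were called higher. On the adjusted p alone, 10 of 10 passed, against 0.524% of all probes. Since the genes were chosen with earlier results of these data known, the counts describe them and are no independent test. The median log2 fold change of the 10 genes was 3.39, and the median of all probes was 0. On both dcKO arrays each member was well above background in the wild type and in the knockout. Lce1k was the dimmest member in the wild type, and the size of its ratio depended on how background was handled. The genes rose on each array, by 2.20 to 4.22 on replicate 1 and by 2.70 to 5.27 on replicate 2, and replicate 2 gave the larger value for all 10.

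Lce1b changed most. Its signal over local background was 794 in the wild type and 23100 in dcKO on replicate 1, and 412 and 8870 on replicate 2. The log2 ratios were 4.22 and 5.03, a mean of 4.63 ± 0.57 (SD, n = 2) or 24.7-fold, with a limma adjusted p of 2.69e-06. It had the highest log2 fold change of the 21370 named genes, each represented by 1 probe. Lce1m followed with 3.08 and 5.27, a mean of 4.18 ± 1.55 (SD, n = 2) and a limma adjusted p of 0.000674. This member had the widest spread between arrays. Lce1k gave 4.12 and 4.14, the closest agreement between arrays, with a mean of 4.13 (17.5-fold, adjusted p = 0.000121 in limma). Its signal over background was 82 and 60 in the wild type and 2500 and 940 in dcKO.

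Lce1h rose by 3.57 and 4.03 (mean 3.80, 13.9-fold). Lce1l rose by 3.15 and 3.79 (mean 3.47, 11.1-fold). Lce1c rose by 3.01 and 3.59 on the probe that represented it (mean 3.30, 9.85-fold). The second Lce1c probe gave 2.90 and 4.54 (mean 3.72, 13.2-fold), so the probes differed more on replicate 2 than on replicate 1. On the dcKO arrays this second probe had the higher mean log2 level in the knockout (15.20 against 14.75), with 11.48 against 11.45 in the wild type. Lce1g rose by 2.89 and 3.25 (mean 3.07), and Lce1i by 2.78 and 3.30 (mean 3.04), beside 3.07 and 3.17 on the second Lce1i probe. Lce1d rose by 2.43 and 3.05 (mean 2.74). Lce1e had the smallest change, 2.20 and 2.70 (mean 2.45, 5.48-fold), and the highest limma adjusted p among the members, 0.0037. Across the 10 genes the limma standard errors were 0.13 to 0.32. The fit takes out the shift between replicate 1 and replicate 2 that the genotypes share, as a dye effect. These errors therefore do not measure the whole spread between animals. Neighbours in this order differed by 0.03 to 0.45, and each such difference was at most 1.31 times the combined standard error of the pair. That combined error treats both genes as independent, although they were read on the same arrays. On one or the other dcKO array the order was reversed for Lce1b and Lce1m, for Lce1m and Lce1k, and for Lce1g and Lce1i. It held on both arrays for the other neighbours. No test between probes was made, so the ranking of neighbours was not settled. Lce1 genes have closely similar sequences. The probe sequences were not analysed here, so signal that one probe takes from the transcript of another Lce1 gene cannot be separated.

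**Figure D1:**
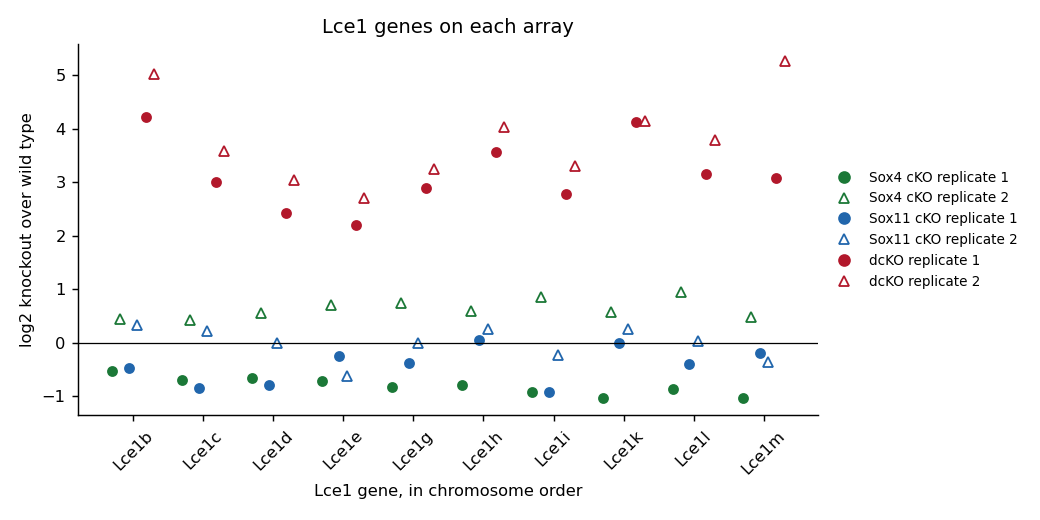
Log2 ratio of knockout over wild type (vertical axis) for the 10 Lce1 genes (horizontal axis) on each of the 6 arrays, with filled circles for replicate 1 and open triangles for replicate 2. The dcKO values lie between 2.20 and 5.27, above all values of Sox4 cKO and Sox11 cKO.

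In Sox4 cKO 0 of 10 members were called, against 0% of all probes called higher, and 0 had an unadjusted limma p under 0.05, against 6.18% of all probes. The mean log2 ratios lay between −0.27 and 0.05. These means joined opposite signs on the 2 arrays, since all 10 genes were below 0 on replicate 1 (−1.04 to −0.52) and above 0 on replicate 2 (0.42 to 0.95). Lce1i showed this with −0.93 and 0.86, although its probe was well above background in all 4 samples. Sox4 cKO replicates differ in dye orientation as well as in animals, and the parts of the dye and of the animals in this opposition cannot be told apart.

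In Sox11 cKO 0 of 10 members were called, again against 0% of all probes called higher, and 2 (Lce1d and Lce1i) had an unadjusted limma p under 0.05, both below the wild type, against 7.05% of all probes in either direction. The mean log2 ratios of the representing probes lay between −0.57 and 0.16. The second Lce1c probe gave −0.72 and the second Lce1i probe 0.12, with unadjusted limma p of 0.000666 and 0.541. Neither passed after adjustment (limma adjusted p = 0.565 and 0.936). On these arrays the Lce1 genes were at or near background on either side. Of the 10 members, 5 were well above background in the wild type on replicate 1 and 0 on replicate 2, and in the knockout 1 was on each array. Lce1b, for example, had signals over background of 13 in the wild type and 1.95 in Sox11 cKO on replicate 1, and of 2 and 9 on replicate 2. Lce1b, Lce1e, Lce1g, Lce1h and Lce1k were not well above background in any sample of this comparison, so no fold can be given for them. A change in Sox11 cKO was thus hardly measurable for these genes.

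The change in dcKO was compared directly with that in each single knockout, as contrasts of the same model, with the p-values adjusted over all probes. It exceeded the change in Sox4 cKO for 9 of 10 members, against 0.128% of all probes. The differences of these 9 were 2.79 (Lce1d) to 4.66 (Lce1b) on the log2 scale, and the 95% confidence interval for Lce1b was 4.25 to 5.07. Such intervals, too, leave out the shared shift between replicates. The exception was Lce1e, with a difference of 2.46 (95% confidence interval 1.65 to 3.27) and a limma adjusted p of 0.0554. Against Sox11 cKO the change was larger for 10 of 10 members, against 0.126% of all probes, and it sets measured ratios in dcKO against ratios formed near background in Sox11 cKO. For Lce1c, Lce1d, Lce1i, Lce1l and Lce1m, which were well above background in some Sox11 cKO or littermate sample, the differences were 3.14 (Lce1d) to 4.45 (Lce1m). Only Lce1m was so in both channels of an array, on replicate 1. Lce1d, Lce1i and Lce1l were so only in the wild type of replicate 1. Lce1c was so in the wild type of replicate 1 and in the knockout of replicate 2. Apart from Lce1m, these Sox11 cKO ratios thus had a channel at background on each array. For Lce1b, Lce1e, Lce1g, Lce1h and Lce1k both channels were at background, so the size of the difference is not a measured one. Without Sox11 cKO replicate 2 it held for 7 of 10 members, with Lce1e, Lce1g and Lce1k no longer passing (adjusted p = 0.146, 0.071 and 0.0579 in limma).

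The change in dcKO also exceeded the sum of the changes in both single knockouts for 9 of 10 members, against 0.0718% of all probes. The excess was 3.75 for Lce1c (95% confidence interval 3.19 to 4.32) and 4.73 for Lce1m (3.47 to 5.99). On the Sox11 cKO arrays, Lce1m had wild type and knockout both clear of background on replicate 1 only. For Lce1c only the wild type was clear of it on replicate 1, and only the knockout on replicate 2. Neither array thus gave a Lce1c ratio free of background. Lce1e did not pass (limma adjusted p = 0.105). For the 5 genes at background on both Sox11 cKO arrays this contrast, too, rests on a ratio of background signals. This count was less stable than the others. It was 3 of 10 without the replicate block, which here is the dye coefficient, and 4 of 10 without Sox11 cKO replicate 2.

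**Figure D2:**
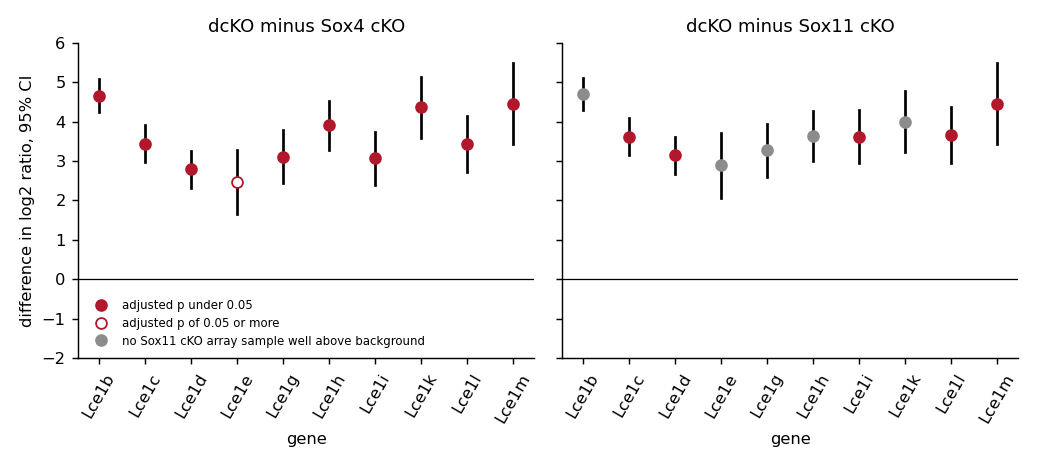
Difference in log2 ratio between dcKO and Sox4 cKO (left) and between dcKO and Sox11 cKO (right) for each Lce1 gene, as limma estimates with 95% confidence intervals. Every interval lies above 0, grey marks the 5 genes not well above background in any sample of the Sox11 cKO arrays, and the open point, Lce1e at 2.46, did not pass after adjustment over all probes.

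The wild-type samples themselves differed greatly in these genes. The levels given here are log2 intensities of 1 channel after loess and between-array scaling of the mean brightness (Aquantile). They were set side by side between arrays for the same probe. The wild type was in Cy3 on replicate 1 and in Cy5 on replicate 2, and no dye effect of single probes was removed from the levels. Dye coefficients of the members were −0.59 (Lce1m) to −0.26 (Lce1e), so level differences of that size between dyes cannot be told from a dye effect. The median wild-type level of the 10 members was 13.33 and 8.55 on the 2 Sox4 cKO arrays, 5.29 and 4.90 on the 2 Sox11 cKO arrays, and 10.59 and 9.55 on the 2 dcKO arrays. For every member the wild type of Sox4 cKO replicate 1 was the highest of the 6 and that of Sox11 cKO replicate 2 the lowest. No member was well above background in that lowest sample, so differences from it are set by the background. Over the 4 wild-type samples beside Sox4 cKO and dcKO, 9 members were well above background in all 4, and their range was 3.97 (Lce1c) to 5.41 (Lce1l) log2 units. A range of 3.97 or more over these samples was seen for 25 of all 55681 probes (0.0449%), and the median range of all probes was 0.36. Lce1k was well above background in 3 of the 4. In unscaled signal over background, wild-type Lce1d was 21400 and 1530 beside Sox4 cKO, 27 and 3 beside Sox11 cKO, and 5310 and 5720 beside dcKO.

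For each of the 9 genes well above background in those 4 wild-type samples, the range was wider than its mean log2 change in dcKO. Both dcKO levels lay above all 6 wild-type levels for 2 of 10 members, Lce1b and Lce1m, compared with 5.46% of all probes. Lce1b had dcKO levels of 14.18 and 13.36, its own wild-type littermates were at 9.96 and 8.33, and the highest wild-type level was 13.31. Lce1d had dcKO levels of 15.23 and 15, littermates at 12.80 and 11.94, and a highest wild-type level of 15.07. For the other 7 members the wild type of Sox4 cKO replicate 1 was likewise above the lower of the dcKO levels. On replicate 1 alone 9 of 10 members lay above all 6 wild-type levels, and on replicate 2 alone 2 did. The share of all probes that did so on a single array was not counted, so these counts have no base rate. On replicate 1 the dcKO level was in Cy5 and the highest wild-type level in Cy3.

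**Figure D3:**
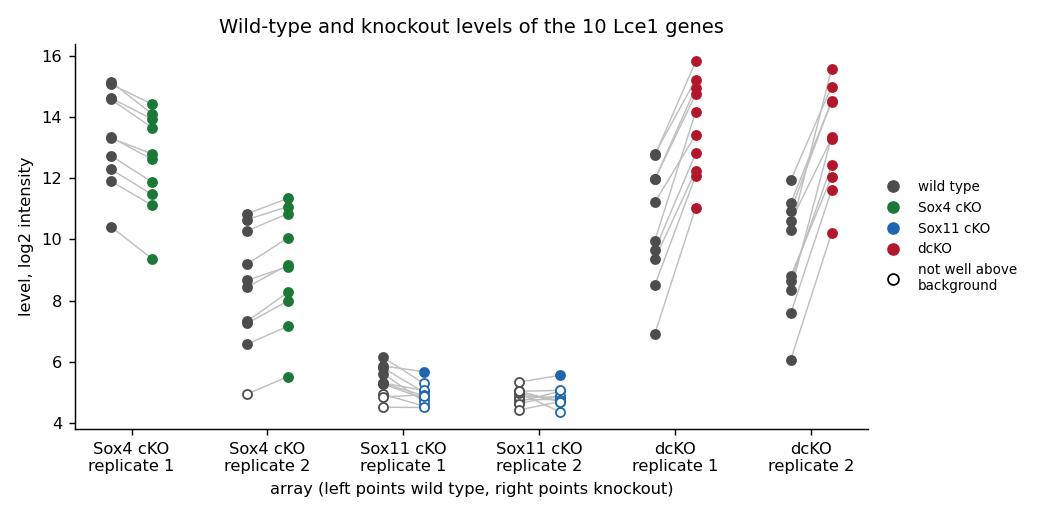
Levels of the 10 Lce1 genes on a log2 intensity scale (vertical axis), with the wild type at the left and the knockout at the right of each array, lines joining the same gene, and open points for signals not well above background. The wild-type medians run from 4.90 beside Sox11 cKO replicate 2 to 13.33 beside Sox4 cKO replicate 1, and the steep lines are those of dcKO.

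Among other lists, the median wild-type level of the 4 other Lce1 genes was 14.32 and 11.27 beside Sox4 cKO, 6.20 and 5.49 beside Sox11 cKO, and 12.49 and 11.85 beside dcKO. For basal keratinocyte genes the median wild-type level was between 12.83 and 13.20 on the 6 arrays. For suprabasal keratinocyte genes such as Krt1 and Krt10 it was 15.31 to 15.43 beside Sox4 cKO and dcKO, and 14.99 and 14.43 beside Sox11 cKO. The periderm genes, keratins of the embryonic cell layer that covers the epidermis until the barrier forms, ran the other way, with their highest wild-type medians beside Sox11 cKO (11.10 and 10.59) and 9.75 to 10.23 beside the others. The dermal fibroblast genes were highest beside Sox4 cKO replicate 1 (11.09) and between 7.42 and 10.16 elsewhere. The part of cell composition or of embryonic stage in the wild-type levels of Lce1 was not tested. In bulk tissue, fewer cells of a type and less RNA per cell cannot be told apart.

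The remaining Lce1 genes on the array behaved alike. Lce1a1, Lce1a2, Lce1f and Lce1j were all called higher in dcKO (4 of 4), with log2 fold changes of 2.24, 2.91, 2.56 and 2.84 and none called in Sox4 cKO or Sox11 cKO. In chromosome order, the run of 15 protein-coding genes from Lce1a1 to 2310050C09Rik held 15 genes called higher and none that was not. Besides 13 Lce1 genes it includes Kprp, which encodes a keratinocyte proline-rich protein and lies between Lce1k and Lce1l (2.57 and 3.94, mean 3.25, limma adjusted p = 7.64e-05). It also includes 2310050C09Rik, next to Lce1l (4.28 and 4.35, mean 4.32, limma adjusted p = 4.32e-05). Lce1m stands apart from this run, beyond the Lce3 genes and Crct1. Among the other 48 genes of the window, which reached 20 genes beyond Lce1a1 and Lce1m, 44 were measured, of which 4 were called higher (Lelp1, Sprr2d, Lce1m and Flg2) and 1 lower (Prr9). The run and the window were chosen after the values were seen.

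**Figure D4:**
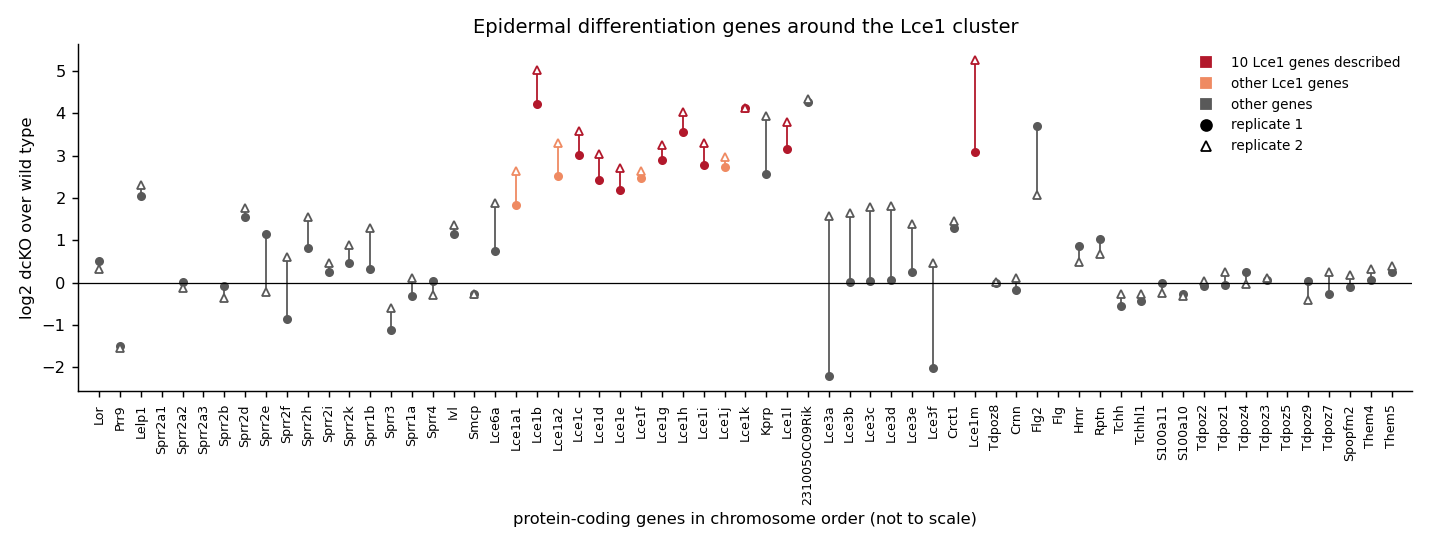
Log2 ratio of dcKO over wild type on both arrays (vertical axis) for the measured protein-coding genes around the Lce1 cluster in chromosome order, evenly spaced. The 15 genes from Lce1a1 to 2310050C09Rik all lie at 1.83 or above on both arrays, with Lce6a before them and Lce3a after them lower.

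The neighbouring families were counted in the same way. Of 7 Lce3 and Lce6 genes, 0 were called in dcKO and 1 passed the adjusted p alone (Lce6a, 1.32, limma adjusted p = 0.00274), with a median of 0.83. The 2 dcKO arrays disagreed over these genes, with medians of 0.04 and 1.65, and Lce3a gave −2.20 and 1.57. Of 14 measured Sprr genes, whose small proline-rich products bridge other envelope proteins, 1 was called higher (Sprr2d, 1.56 and 1.77, limma adjusted p = 0.00101), and the median was 0.41. Of 13 other measured envelope genes of the complex, 4 were called higher and 1 lower. The 4 were Kprp, 2310050C09Rik, Flg2 (3.71 and 2.08, a filaggrin relative) and Lelp1 (2.05 and 2.32), and the 1 was Prr9 (−1.49 and −1.55). Flg2 was well above background in the wild type on only 1 of the 2 dcKO arrays, so its change is partly set by background. Loricrin (Lor), the main protein of the envelope by mass, gave 0.51 and 0.32 with a limma adjusted p of 0.623. Involucrin (Ivl), an early scaffold of the envelope, gave 1.15 and 1.36 with a limma adjusted p of 0.135. Whether these lists differ from the Lce1 genes was not tested as such.

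Among 10 genes of envelope cross-linking and cell junctions, which include the transglutaminases, none passed the adjusted p, and the median was 0.22. The largest values were those of corneodesmosin (Cdsn, 1.43 and 2.11, limma adjusted p = 0.168), Dsc1 (0.45 and 0.78) and Tgm3 (0.63 and 0.60). In basal and suprabasal keratinocyte genes none of 6 and none of 6 passed, with medians of 0.02 and 0.46.

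Markers of other cells were read beside these values. All 6 periderm keratins were below 0 on both dcKO arrays (median −1.17), and 3 of them fell at an adjusted p under 0.05 (Krt4, −1.50, Krt17, −1.37, and Krt19, −1.40). The share of all probes that fell at this adjusted p was not counted, so this count has no base rate. None of the 6 was called at the fold threshold. Their summed level on the log2 scale was 12.97 in the wild type and 11.83 in dcKO on replicate 1, and 13.08 and 11.89 on replicate 2. The fall was not particular to dcKO. In Sox11 cKO the periderm median was −1.15, with 4 of 6 below 0 on both arrays and 0 passing the adjusted p. In Sox4 cKO the median was 0.48, with 5 of 6 above 0 on both arrays and Krt17 at −0.94. Of 7 dermal fibroblast genes, 5 were below 0 on both arrays, Dcn (0.41 and 0.29) and Postn (0.72 and 0.44) were above 0 on both, and none passed. Their median was −1.90, and Col3a1 was at −2.12 (limma adjusted p = 0.52). Their summed level was 13.63 and 13.28 on replicate 1, and 13.15 and 13.06 on replicate 2, and the wild type was well above background for 7 of 7. The medians of skeletal muscle, endothelium, red blood cell, immune cell and melanocyte genes were −0.47, 0.01, 0.24, 0.04 and 0.03, with none that passed. The part of periderm or dermal cells in the Lce1 result was not tested.

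**Figure D5:**
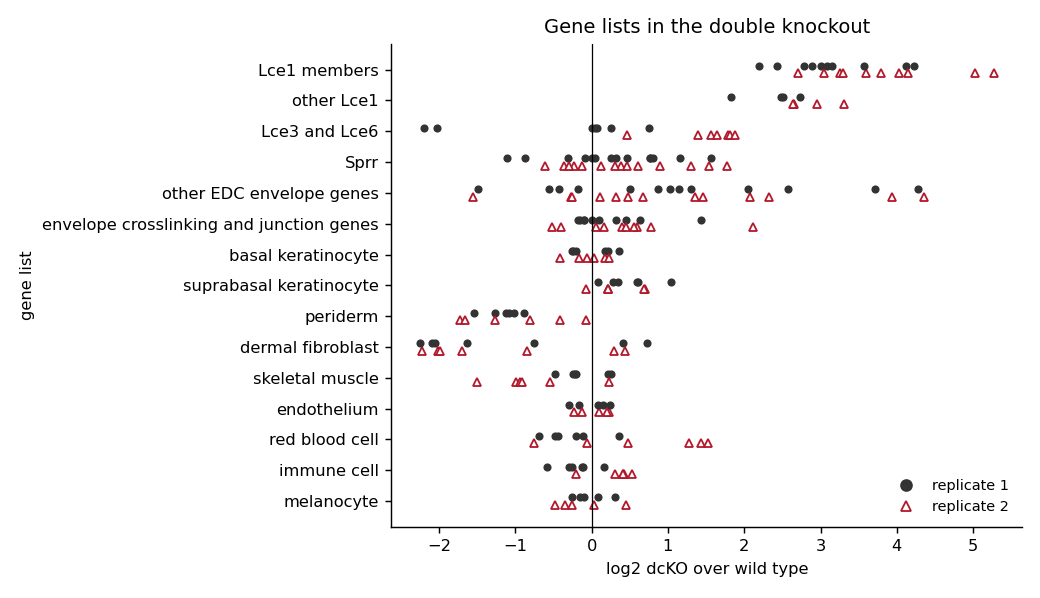
Log2 ratio of dcKO over wild type (horizontal axis) for each gene of the lists named at the left, with filled circles for replicate 1 and open triangles for replicate 2. All Lce1 genes lie at 1.83 or above on both arrays, and the 6 periderm genes lie below 0.

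The named genes outside the 10 members whose values on the 6 arrays were nearest to the median profile of the members were Kprp (root mean square difference 0.27 log2 units), Sdcbp2 (0.41), Lce1j (0.43), Lnx1 (0.45), Tmem229b (0.50), Lce1f (0.54), Stk10 (0.55), Lce1a2 (0.56), Nt5c3 (0.64) and 3300005D01Rik (0.65). Sdcbp2 (syntenin 2) gave 3.65 and 4.13 in dcKO. Its values were −0.41 and 0.46 when Sox4 was deleted and −0.06 and 0.44 when Sox11 was. Kprp repeated the opposite signs of the Lce1 genes in Sox4 cKO, with −0.66 and 0.67. The likeness is a description over 6 arrays, and the dcKO arrays weigh most in it.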

How the data were processed

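The 10 genes and all gene lists were chosen with earlier results of these data known. Total RNA was amplified and labelled with Cy3 or Cy5. The authors scanned the arrays and extracted spots with Agilent Feature Extraction (version 11.0.1.1 per the submitters' processing notes, which also name limma 3.5). For every spot, the deposited scanner files hold the intensity of both dyes with the local background, not normalized, and a log10 ratio that Feature Extraction normalized. The authors' deposited series table gives 1 log2 value (knockout over wild type) for a probe on an array. Per the study's methods, it was corrected with normexp (offset 16) and loess, and a colour effect was removed with ComBat. Recomputed from the scanner files with that offset and loess alone, the values correlated with it across probes at 0.9999 or more on every array (slope 1), so the colour step is not in the table.

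The log2 table was analysed in R 4.3.3 with limma 3.58.1 after 138 control rows were left out. All 55681 probes were fitted over the 6 arrays with 1 coefficient per genotype and 1 dye coefficient, with 2 residual and 6.65 prior degrees of freedom. P-values were two-sided and adjusted over all probes (Benjamini-Hochberg). A call required an adjusted p under 0.05 with a log2 fold change beyond 1.5 in either direction. Of the probes, 28341 received a symbol from RefSeq (GRCm38.p6). Coordinates of the array's own design were not used. Named were all members, the called genes of each list (otherwise up to 3 with the largest dcKO change) and the 10 nearest profiles. Genes of the region, Lor and Ivl were added after their values were seen.

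The dye coefficient is also a replicate block, since replicate numbers coincide with dye orientation. A shift common to same-numbered arrays is removed with it, whether from dye or animals. The standard errors and confidence intervals leave that shift out. Deviations of same-numbered arrays from their genotype means correlated at r = 0.26, 0.31 and 0.33. Wild-type levels and background marks came from the scanner files. Between 37.7% and 42.3% of probes were well above background in any 1 channel. No non-control spot was saturated, and 0.309% to 0.393% carried an outlier flag. With 2 arrays per genotype, their number limits the precision. The fit was tested on simulated data. The simulated noise was independent between arrays, so a shift shared by same-numbered arrays was not covered. The alternatives were normexp with offset 16 or 50 or no background subtraction from the scanner files, the Feature Extraction ratio, no replicate block, dcKO arrays alone, bright probes alone, an intensity trend, probe means, each array left out in turn, and, added after seeing the data, both Sox11 cKO arrays left out.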

Additional observations from a re-analysis of the deposited data

Results flagged for a closer look

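The change of the Lce1 genes differed between genotypes by a test of the difference itself, in limma with p-values adjusted over all probes. The log2 change in dcKO exceeded that in Sox4 cKO by 4.66 for Lce1b, 3.44 for Lce1c, 2.79 for Lce1d, 3.11 for Lce1g, 3.90 for Lce1h, 3.07 for Lce1i, 4.36 for Lce1k, 3.42 for Lce1l and 4.45 for Lce1m. It exceeded that in Sox11 cKO by 3.62 for Lce1c, 3.14 for Lce1d, 3.61 for Lce1i, 3.65 for Lce1l and 4.45 for Lce1m, each well above background in at least 1 sample of the Sox11 cKO arrays. Only Lce1m was so in both channels of 1 array, so the others are set against ratios with a channel at background. The contrast also passed for Lce1b (4.70), Lce1e (2.89), Lce1g (3.27), Lce1h (3.64) and Lce1k (4.0), but these were well above background in no sample of those arrays, so their values are set against a ratio of background signals and are not measured differences. The wild-type levels beside the 3 genotypes also differed, with medians from 4.90 to 13.33 on the log2 scale.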

How the results depend on the processing

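All 10 genes were called higher in dcKO, and passed on the adjusted p alone, under every alternative except the Feature Extraction log ratio, and with each array left out in turn (10 to 10). Under the Feature Extraction log ratio 0 of 10 were called or passed in dcKO, and 0 exceeded Sox4 cKO, Sox11 cKO or the sum of both. Under it no probe of the array was called in dcKO, while the members' log2 values stayed at 2.44 to 4.68. The cause was not tested. The median dcKO change was 3.34 to 3.49 over the alternatives that kept all arrays and 3.14 to 3.49 with 1 array left out. The count above the sum of both single knockouts was 3 without the replicate block, 4 with bright probes alone, and 4 to 10 with 1 array left out, lowest without Sox11 cKO replicate 2. The count above Sox4 cKO was 8 to 10 with 1 array left out, and Lce1m no longer passed without Sox4 cKO replicate 1 (4.19, limma adjusted p = 0.0694). Lce1e passed against Sox4 cKO in 9 of 15 alternatives. The count above Sox11 cKO was 7 to 10, lowest without Sox11 cKO replicate 2. Leaving out both Sox11 cKO arrays gave 10 called in dcKO and 10 above Sox4 cKO. The replicate block changed no call in dcKO. For Lce1d and Lce1i the difference from Sox4 cKO did not pass without it (adjusted p = 0.0565 and 0.0914 in limma). The planned ComBat alternative was not run. Where 1 array was left out, the remaining array of its genotype was assumed to vary like those of the others. Signal over background limits Sox11 cKO, where the members lay near background, and Lce1k in the wild type of Sox4 cKO replicate 2. The dcKO change of Lce1k, 4.13 as reported, was 3.70 with normexp offset 50 and 3.93 without background subtraction. Under the Feature Extraction log ratio it was 4.57.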
